A study of Mus musculus with 10 samples.

Results

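The genes described here are 36 named genes of the response to low oxygen and of glycolysis, measured by RNA sequencing in Neuro2a cells, a mouse neuroblastoma line. They were chosen by name as targets of the hypoxia-inducible factors (HIF) or as enzymes of glucose uptake and glycolysis. That choice was made with earlier results of these data known, so shares of all genes beside their counts describe and do not test. The 36 genes were found by Ensembl identifier in the GENCODE M21 annotation. They are 36 of 55401 gene identifiers, and all 36 passed the filter on low counts in the fits reported. Car9 alone was not tested in 1 alternative, the stranded column 4 of the zinc-finger arm. The set holds 15 HIF targets outside glycolysis, 20 genes of glucose uptake and glycolysis, and Hif1a itself.

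Cells labelled dCas9-SCN9A (3 libraries) received a Cas9 without cleavage activity directed at SCN9A, the gene of the sodium channel NaV1.7, and were compared with cells labelled dCas9-empty (3 libraries). Cells labelled ZF-SCN9A (2 libraries) received an engineered zinc-finger DNA-binding protein directed at the same gene, and were compared with cells that received mCherry, a red fluorescent protein (2 libraries). All groups were wild-type Neuro2a cells transfected with Lipofectamine 2000 and 0.5 µg of each plasmid, with a change of media after 24 h and an incubation of 72 h at 37°C in 5% CO2. An oxygen level below that of the incubator is not given for any group. Transfection was transient, so each library pools cells that did and did not take up plasmid. In such bulk libraries fewer cells with a transcript and less transcript per cell cannot be told apart. Separate cultures are not named for the replicates, so p-values measure the spread between these libraries only.

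The dCas9-SCN9A libraries held 15.36 to 16.35 M gene counts and dCas9-empty 17.77 to 18.98 M (M, 1000000), while ZF-SCN9A held 4.41 and 6.30 M and mCherry 6.59 and 7.48 M. The targeted gene Scn9a stood at 28.2 to 30.9 counts per M gene counts (CPM) in dCas9-SCN9A against 75.1 to 80.9 in dCas9-empty, and at 15.6 to 18.8 CPM in ZF-SCN9A against 56.1 to 62.2 in mCherry. Of 13 sympathoadrenal markers, the cell type of a neuroblastoma, 11 were above 1 CPM in every group. Of 6 immune markers, 0 were above 1 CPM in dCas9-SCN9A and in dCas9-empty, and 1 in ZF-SCN9A and in mCherry. Fibroblast markers above 1 CPM numbered 6 of 8 in dCas9-SCN9A, 5 in dCas9-empty and in ZF-SCN9A, and 4 in mCherry. Endothelial ones numbered 2 of 5 in dCas9-SCN9A and in dCas9-empty, 3 in ZF-SCN9A and 4 in mCherry, and glial ones 2 of 6 in every group. Sympathoadrenal markers summed to 2012.8 CPM or more in each library, and fibroblast, glial and endothelial ones to at most 36.6, 30.1 and 97.6. Reads shared with near-identical copies were set aside as multimapping by the authors' counting, at 6.62% to 8.98% of listed reads. Genes with processed pseudogenes, such as Gapdh, Tpi1, Eno1 and Ldha, are therefore less certain than the others.

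HIF is a pair of proteins, an alpha subunit such as HIF-1α and the stable partner ARNT. When oxygen is plentiful, prolyl hydroxylases of the EGLN family mark the alpha subunit for destruction through VHL. When oxygen falls the alpha subunit accumulates, binds short hypoxia response elements and raises genes for vessel growth, mitochondrial turnover, collagen folding and glucose use. Glycolysis turns glucose into pyruvate, and tumour cells run it fast even in air. HIF-1α is controlled mainly through its protein, so the Hif1a transcript is no measure of HIF activity.

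The levels of these genes spanned a wide range. Per kilobase of exon, Aldoa, the aldolase of most tissues, was highest, at 802.8 CPM per kb in ZF-SCN9A and 784.7 in mCherry, and at 1050.7 in dCas9-SCN9A and 1051.1 in dCas9-empty. Ldha, which makes lactate from pyruvate, followed at 617 CPM per kb in ZF-SCN9A and 624 in mCherry. Car9, a cell-surface carbonic anhydrase that HIF induces sharply in many tumours, was lowest at 0.823 CPM per kb in ZF-SCN9A and 0.439 in mCherry. The 20 genes of glucose uptake and glycolysis had a median of 95.8 CPM per kb in ZF-SCN9A and 81.2 in mCherry, and together took 1.68% and 1.65% of gene counts. The 15 HIF targets had a median of 18.2 CPM per kb in ZF-SCN9A and 14.6 in mCherry. The dCas9 arm showed the same order of the classes, with medians of 120.2 and 18.5 CPM per kb in dCas9-SCN9A, and of 125.0 and 23.2 in dCas9-empty.

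**Figure D1:**
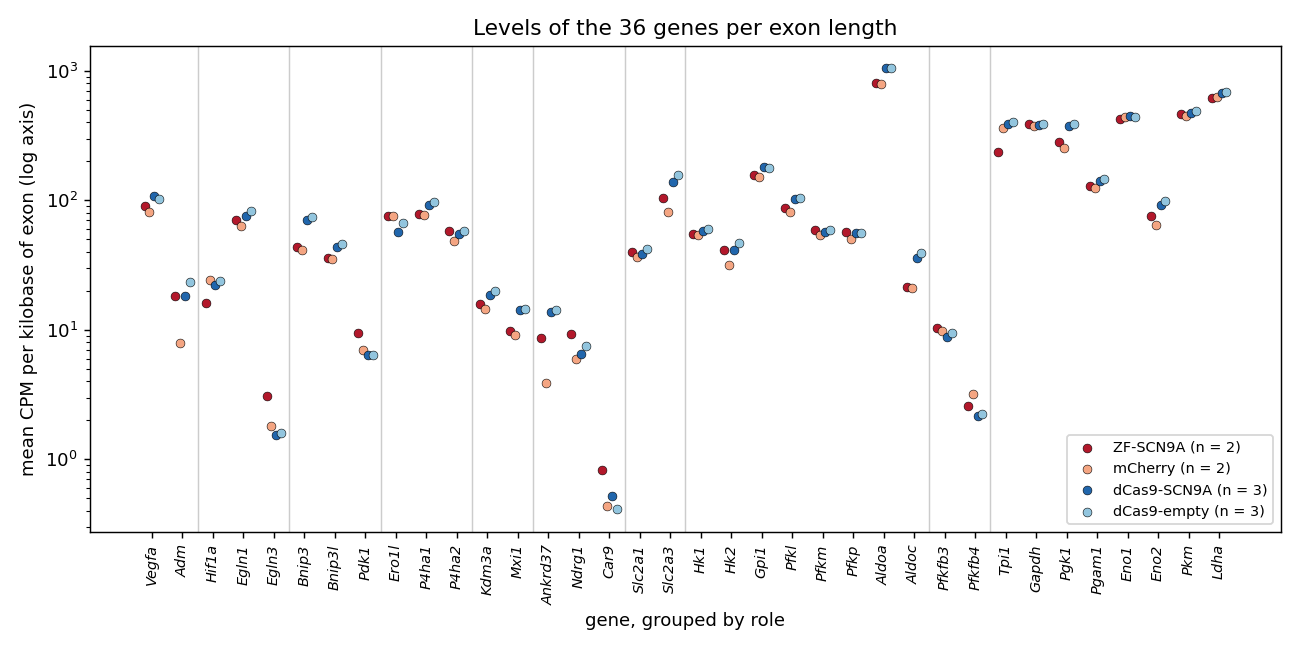
Mean level of each of the 36 genes in CPM per kilobase of exon on a log axis, for ZF-SCN9A and mCherry (n = 2 each) and dCas9-SCN9A and dCas9-empty (n = 3 each), with grey lines between the roles. Aldoa lies at the top and Car9 at the bottom in every group.

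With the zinc finger, 9 of 36 genes changed at an adjusted p under 0.05, against 4.72% of all 12899 genes tested. The 7 that rose were Adm, Ankrd37, Ndrg1, Pdk1, Hk2, Slc2a3 and P4ha2, where 1.95% of all genes rose. The 2 that fell were Hif1a and Tpi1, where 2.78% of all genes fell. Among the 15 HIF targets outside glycolysis, 5 rose and 0 fell. All 15 fitted changes were above 0, with a median log2 fold change of 0.16, the lowest, Ero1l, rounding to 0.00. With 1 library left out, the lowest fitted changes of Egln1, Bnip3, Bnip3l, Ero1l and P4ha1 were -0.04, -0.04, -0.08, -0.18 and -0.13. Among the 20 genes of glucose uptake and glycolysis, 2 rose, 1 fell and 17 did not pass, with a median of 0.06 and 16 values above 0. Over all genes tested the median was 0.00 and 50.4% of values were above 0. The difference between the HIF targets and the glycolytic genes was not tested, and the members within each class share cells and libraries.

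With dCas9, 0 of 36 genes changed, against 0.041% of all 14628 genes tested by edgeR. DESeq2 and limma-voom also called 0 of the 36, against 0.329% and 0.041% of all genes they tested, and 0 of 36 reached an unadjusted p under 0.05 in edgeR, where 10.1% of all genes did. Fitted changes were below 0 for 32 of 36 genes, against 48.3% of all genes. The median log2 fold change was -0.07 for the 15 HIF targets and -0.05 for the 20 genes of glucose uptake and glycolysis, against 0.01 for all genes. Both medians were above 0 once dCas9-SCN9A replicate 3 was left out, at 0.06 and 0.05. In that library all 36 genes lay below the dCas9-empty mean, by a median of -0.29 on the log2(CPM + 1) scale, although 50.9% of all genes tested lay above it. The control dCas9-empty replicate 3 also had 29 of 36 genes below that mean, by a median of -0.11, where 49.1% of all genes lay above. In replicate 2, 25 genes of dCas9-SCN9A and 32 of dCas9-empty lay above it. When a replicate block was added, edgeR called Hk2 and Ero1l lower, 2 of 36, where 84 of all genes rose and 178 fell.

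**Figure D2:**
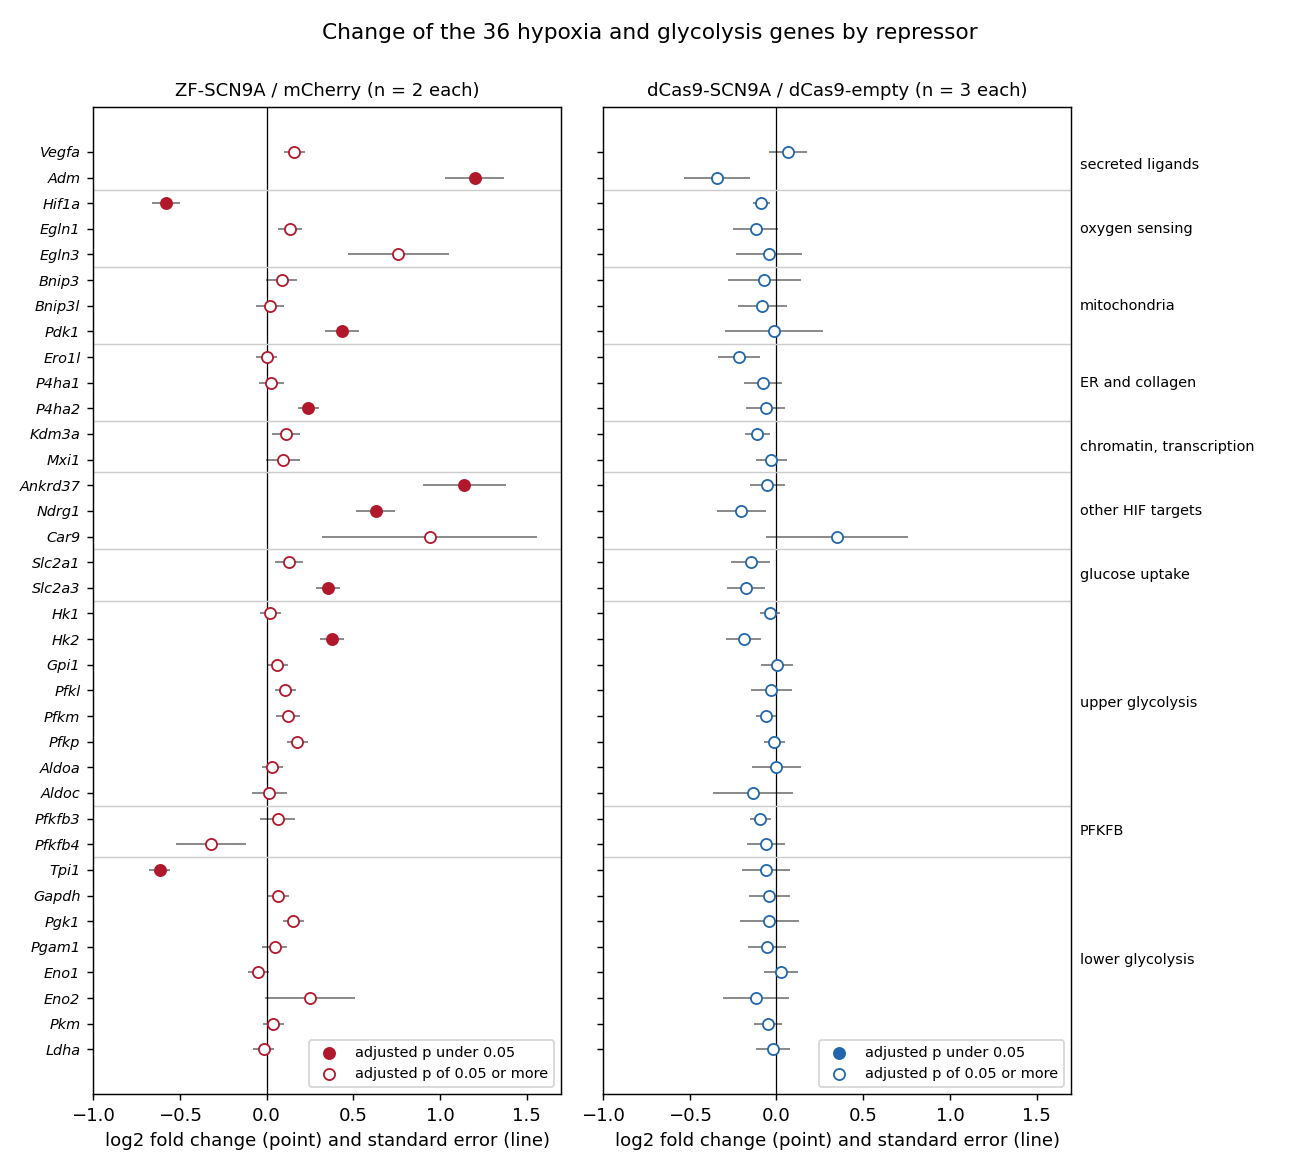
Log2 fold change (point) and standard error (line) of the 36 genes for ZF-SCN9A against mCherry (left, n = 2 each) and dCas9-SCN9A against dCas9-empty (right, n = 3 each), with filled points at an adjusted p under 0.05. The left panel holds 9 filled points, 7 to the right of 0 and 2 to the left, and the right panel holds 0.

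The promoters of genes that changed are shown because HIF acts through a short DNA motif that can be looked for in them. Motifs searched were the core hypoxia response element letters ACGTG and GCGTG on both strands, which read CACGT and CACGC on the strand printed. The stretches come from RefSeq on build GRCm38.p6 and lie within the 250 bases before the RefSeq start. They leave out annotated exons, so that of Ankrd37 ends short of the start. They run 5′ to 3′ on the gene's strand, with matches in capitals. For Ankrd37, P4ha2, Ldha and Hif1a the RefSeq start used differs from the GENCODE start, and the stretch lies inside the GENCODE gene. Adm, Ankrd37, P4ha2, Hk2 and Pdk1 rose with the zinc finger, Hif1a and Tpi1 fell, and Ldha, which did not pass the test, is shown beside them. Ndrg1 and Slc2a3, which also rose, are not shown.
Adm promoter, chr7:110627407-110627656, plus strand: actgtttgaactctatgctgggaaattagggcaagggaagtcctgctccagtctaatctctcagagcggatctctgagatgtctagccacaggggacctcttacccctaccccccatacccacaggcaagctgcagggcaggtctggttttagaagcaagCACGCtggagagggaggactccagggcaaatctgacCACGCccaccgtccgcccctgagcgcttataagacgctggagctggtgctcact
Ankrd37 promoter, chr8:45999868-46000100, minus strand: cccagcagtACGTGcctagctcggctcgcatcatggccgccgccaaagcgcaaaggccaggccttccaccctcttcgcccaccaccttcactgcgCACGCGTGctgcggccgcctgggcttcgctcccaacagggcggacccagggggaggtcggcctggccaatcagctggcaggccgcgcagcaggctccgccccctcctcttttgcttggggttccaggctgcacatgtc
P4ha2 promoter, chr11:54100674-54100923, plus strand: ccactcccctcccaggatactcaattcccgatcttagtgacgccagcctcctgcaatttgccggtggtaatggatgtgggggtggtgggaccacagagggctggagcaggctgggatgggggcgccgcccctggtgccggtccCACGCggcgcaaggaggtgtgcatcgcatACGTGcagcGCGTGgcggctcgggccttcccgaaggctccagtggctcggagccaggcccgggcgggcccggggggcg
Hk2 promoter, chr6:82774455-82774704, minus strand: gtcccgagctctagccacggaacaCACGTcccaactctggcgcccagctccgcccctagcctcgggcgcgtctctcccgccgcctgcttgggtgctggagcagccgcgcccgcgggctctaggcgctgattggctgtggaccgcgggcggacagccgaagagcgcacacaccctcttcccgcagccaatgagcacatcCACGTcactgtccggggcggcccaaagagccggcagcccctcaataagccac
Pdk1 promoter, chr2:71872974-71873223, plus strand: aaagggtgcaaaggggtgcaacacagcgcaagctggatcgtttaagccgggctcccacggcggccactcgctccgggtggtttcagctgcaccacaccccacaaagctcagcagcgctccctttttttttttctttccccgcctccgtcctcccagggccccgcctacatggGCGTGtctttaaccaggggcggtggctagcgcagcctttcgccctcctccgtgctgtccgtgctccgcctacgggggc
Ldha promoter, chr7:46845554-46845803, plus strand: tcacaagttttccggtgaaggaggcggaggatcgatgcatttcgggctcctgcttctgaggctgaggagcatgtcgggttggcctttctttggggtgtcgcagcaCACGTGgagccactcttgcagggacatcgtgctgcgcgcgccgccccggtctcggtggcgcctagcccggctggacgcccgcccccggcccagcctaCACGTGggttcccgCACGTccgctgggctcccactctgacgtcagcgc
Hif1a promoter, chr12:73907617-73907866, plus strand: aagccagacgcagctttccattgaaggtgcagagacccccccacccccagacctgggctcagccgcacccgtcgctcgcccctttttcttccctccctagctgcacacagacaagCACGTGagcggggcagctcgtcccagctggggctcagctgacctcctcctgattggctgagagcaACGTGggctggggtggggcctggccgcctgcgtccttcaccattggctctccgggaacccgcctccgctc
Tpi1 promoter, chr6:124814297-124814408, minus strand: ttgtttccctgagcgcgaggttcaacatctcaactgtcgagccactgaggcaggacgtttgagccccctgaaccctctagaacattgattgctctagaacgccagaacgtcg

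The Adm stretch held 2 matches, at 90 and 54 bases before the start, and the Ankrd37 stretch 3, of which a pair overlap in CACGCGTG. P4ha2 held 3 matches, Hk2 held 2 and Pdk1 held 1. Ldha held 5, in 3 separate places, since CACGTG reads as a match on both strands. Second annotated starts, not shown, held 1 match for Ldha and 0 for Pdk1. Hif1a held 3 matches and Tpi1 held 0 in the 112 bases printed. Over the 250 bases before the start, 29 of the 32 genes with a promoter entry held a match (90.6%), against 41.5% of all 27025 genes with an entry. Those 27025 genes were not limited to expressed ones, and the gap between the shares was not tested. All 12 HIF targets with an entry held one, as did 16 of 19 genes of glucose uptake and glycolysis (84.2%). A match is a run of letters, not a measured binding site, and Ldha, with the most matches of the 8 stretches, did not pass the test.

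The secreted ligands were Adm and Vegfa. Adm (ENSMUSG00000030790, GRCm38 chromosome 7, 110627661 to 110629820) encodes adrenomedullin, a peptide that widens vessels. It stood at 31.7 and 27.4 CPM in ZF-SCN9A, against 9.90 and 15.7 CPM in mCherry. Both zinc-finger libraries lay above both controls, and Adm had the largest fold of the set, 2.30, or 1.20 ± 0.17 on the log2 scale (± SE here and below, adjusted p = 1.70e-10). In the dCas9 arm it stood at 30.7, 36.1 and 21.8 CPM in dCas9-SCN9A, against 32.2, 39.6 and 40.9 CPM in dCas9-empty. These groups overlapped, with a log2 fold change of -0.35 ± 0.19 (adjusted p = 0.602). The control level of Adm was thus higher in the dCas9 arm than its level with the zinc finger, though the arms were scaled separately and that gap was not tested. Vegfa, the vessel growth factor, stood at 406.0 and 371.4 CPM in ZF-SCN9A against 325.1 and 371.1 in mCherry, where the nearest libraries all but touched. It did not pass (0.16 ± 0.06, adjusted p = 0.139), nor with dCas9, at 457, 504 and 415 CPM in dCas9-SCN9A against 376, 436 and 502 in dCas9-empty (0.07 ± 0.11, adjusted p = 0.893).

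Oxygen sensing was represented by Hif1a and by the hydroxylases Egln1 and Egln3. Hif1a (ENSMUSG00000021109, chromosome 12, 73901375 to 73947530) stood at 96.4 and 93.4 CPM in ZF-SCN9A, against 151.1 and 133.5 CPM in mCherry. It fell to 0.669 of the control level, with a log2 fold change of -0.58 ± 0.08 (adjusted p = 6.32e-10), the opposite direction to the HIF targets that rose. With dCas9 it stood at 136.7, 124.9 and 132.6 CPM in dCas9-SCN9A against 142.2, 138.3 and 138.2 in dCas9-empty. Those groups did not overlap, but the change was small and did not pass (-0.09 ± 0.05, adjusted p = 0.617). Exons of Gm15283 on the other strand and of Gm49321 on the same strand cover 5.60% and 2.51% of the exon bases of Hif1a, and averaged 1.28 and 0 CPM in ZF-SCN9A against 0.784 and 0 in mCherry. Egln1, the main hydroxylase, stood at 263.3 and 240.2 CPM in ZF-SCN9A against 199.4 and 259.0 in mCherry, and at 300.8, 295.2 and 225.9 CPM in dCas9-SCN9A against 316.1, 317.6 and 259.6 in dCas9-empty. Its groups overlapped in both arms. Egln3, which HIF itself induces as feedback, stood at 7.57 and 8.82 CPM in ZF-SCN9A against 5.33 and 4.30 in mCherry, a log2 fold change of 0.76 ± 0.29 that did not pass (adjusted p = 0.119). Under dCas9 it stood at 4.26, 4.82 and 3.29 CPM in dCas9-SCN9A against 4.77, 3.62 and 4.39 in dCas9-empty, with overlapping groups.

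Among the mitochondrial and endoplasmic reticulum targets, Pdk1 and P4ha2 passed with the zinc finger. Pdk1 (ENSMUSG00000006494), the kinase that shuts pyruvate dehydrogenase, stood at 70.8 and 77.4 CPM in ZF-SCN9A against 48.0 and 60.8 in mCherry. It rose by 0.43 ± 0.10 on the log2 scale (adjusted p = 0.00153). With dCas9 it stood at 58.1, 55.9 and 34.7 CPM in dCas9-SCN9A against 54.6, 57.9 and 37.5 in dCas9-empty, where the third library of each group was lowest. P4ha2 (ENSMUSG00000018906), a collagen prolyl hydroxylase, stood at 360.1 and 359.7 CPM in ZF-SCN9A against 274.2 and 334.3 in mCherry, and rose by 0.24 ± 0.06 (adjusted p = 0.00889). In dCas9-SCN9A it stood at 351.2, 396.9 and 286.7 CPM, against 344.6, 385.1 and 350.7 in dCas9-empty. Its sister enzyme P4ha1 stood at 332.4 and 316.2 CPM in ZF-SCN9A against 280.9 and 354.9 in mCherry, with overlapping groups (0.03 ± 0.07, adjusted p = 0.892). Under dCas9, P4ha1 stood at 382.3, 435.8 and 319.8 CPM in dCas9-SCN9A against 389.3, 438.9 and 373.0 in dCas9-empty.

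Bnip3 and Bnip3l, which mark mitochondria for removal, did not pass in either arm. Bnip3 stood at 103.7 and 95 CPM in ZF-SCN9A against 84.6 and 102.6 in mCherry, and at 176.8, 186.8 and 118.3 CPM in dCas9-SCN9A against 171.0, 187.2 and 148.0 in dCas9-empty. Ero1l, the oxidase that forms disulfide bonds in the endoplasmic reticulum, stood at 417.2 and 380.5 CPM in ZF-SCN9A against 345.4 and 452.1 in mCherry, a log2 fold change of 0.00 ± 0.06. It stood at 323.1, 337.8 and 247.4 CPM in dCas9-SCN9A against 353.3, 379.1 and 321.8 in dCas9-empty, with overlapping groups (-0.21 ± 0.12, adjusted p = 0.605). Kdm3a, a histone demethylase, stood at 135.5 and 123.1 CPM in ZF-SCN9A against 112.6 and 127.3 in mCherry, and at 157.3, 162.0 and 137.1 CPM in dCas9-SCN9A against 151.7, 173.1 and 167.4 in dCas9-empty. Neither Kdm3a nor the MYC antagonist Mxi1 passed in either arm, with log2 fold changes of 0.11 and 0.10 for the zinc finger and -0.11 and -0.03 for dCas9.

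Among the remaining HIF targets, Ankrd37 (ENSMUSG00000050914, chromosome 8, 45996902 to 46005707), an ankyrin repeat protein, stood at 13.7 and 12.9 CPM in ZF-SCN9A against 5.33 and 6.72 in mCherry. It rose 2.2-fold (log2 1.14 ± 0.24, adjusted p = 0.0002). Under dCas9 it stood at 22.3, 23.7 and 17.9 CPM in dCas9-SCN9A against 21.7, 23.5 and 21 in dCas9-empty, so both groups of that arm lay above the zinc-finger libraries. Lrp2bp on the other strand covers 22.7% of its exon bases and averaged 2.35 CPM in ZF-SCN9A and 3.72 in mCherry, with a log2 fold change of -0.54 that did not pass, and Ufsp2, also on the other strand, covers 3.70% and averaged 84.2 CPM in both groups. Ndrg1 (ENSMUSG00000005125), a stress-response gene linked to differentiation, stood at 67.5 and 53.8 CPM in ZF-SCN9A against 33.2 and 45.7 in mCherry. It rose by 0.63 ± 0.11 (adjusted p = 5.50e-06), and in the dCas9 arm stood at 48.6, 47.1 and 32.5 CPM in dCas9-SCN9A against 51.8, 50.5 and 45.2 in dCas9-empty. Car9 stood at 2.21 and 1.58 CPM in ZF-SCN9A against 1.22 and 0.806 in mCherry, with a log2 fold change of 0.94 ± 0.62 that did not pass (adjusted p = 0.486).

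**Figure D3:**
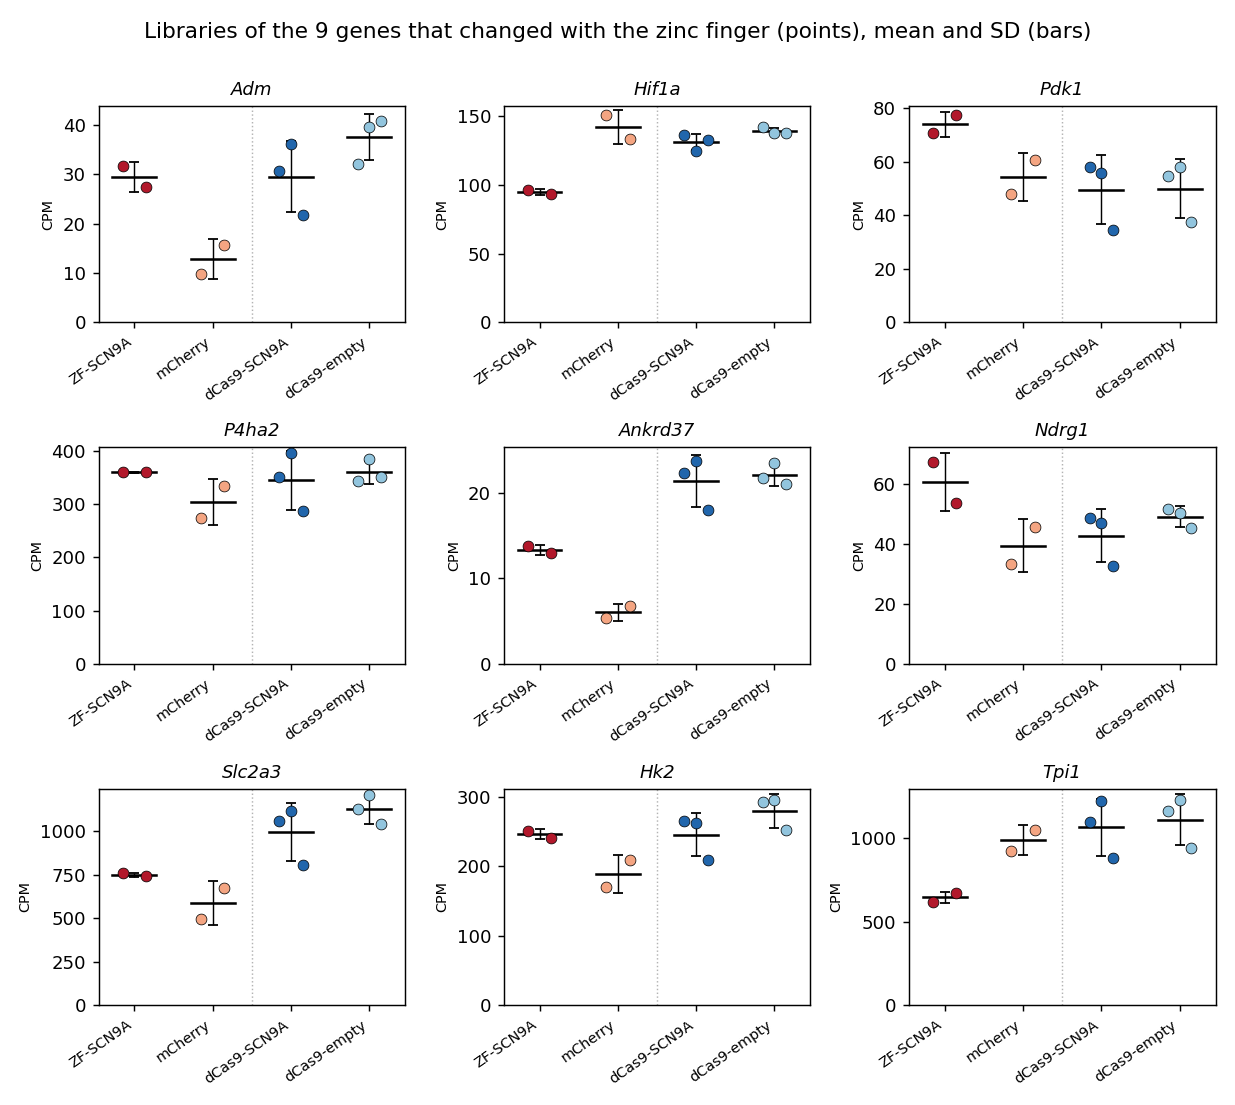
CPM of the 9 genes that changed with the zinc finger in each library (points), with the group mean (thick bar) and SD (thin bar), for ZF-SCN9A and mCherry (n = 2 each) left of the dotted line and dCas9-SCN9A and dCas9-empty (n = 3 each) right of it. Both ZF-SCN9A points lie on one side of both mCherry points in all 9 panels, above in 7 and below in Hif1a and Tpi1.

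Of the 2 glucose transporters and 2 hexokinases in the set, 1 of each rose with the zinc finger. Slc2a3 (ENSMUSG00000003153), the neuronal glucose transporter GLUT3, stood at 760.0 and 742.2 CPM in ZF-SCN9A against 496.5 and 676.2 in mCherry, and rose by 0.36 ± 0.07 (adjusted p = 0.00042). It stood at 1061, 1120.5 and 808 CPM in dCas9-SCN9A against 1128, 1208 and 1045 in dCas9-empty, with overlapping groups. Slc2a1, the widely expressed transporter GLUT1, did not pass in either arm (0.13 ± 0.08 with the zinc finger, adjusted p = 0.435, and -0.15 ± 0.11 with dCas9, adjusted p = 0.703). Hk2 (ENSMUSG00000000628), the inducible hexokinase that traps glucose in the cell, stood at 251.5 and 241.4 CPM in ZF-SCN9A against 170.0 and 208.7 in mCherry, and rose by 0.38 ± 0.07 (adjusted p = 8.95e-06). In the dCas9 arm it stood at 265.8, 262.0 and 209.8 CPM in dCas9-SCN9A against 292.7, 296.0 and 252.0 in dCas9-empty (-0.19 ± 0.10, adjusted p = 0.553), the smallest p of the 36 genes there. The constitutive hexokinase Hk1 did not pass in either arm (0.02 ± 0.06 with the zinc finger and -0.04 ± 0.06 with dCas9). Per kilobase, Hk2 made up 42.1% ± 1.63 of hexokinase transcripts in ZF-SCN9A and 36.1% ± 1.38 in mCherry (SD, n = 2 each), with libraries at 41.0% and 43.3% against 35.1% and 37.1%. Under dCas9 the share was 41.0% ± 1.87 in dCas9-SCN9A and 43.6% ± 1.42 in dCas9-empty (SD, n = 3 each), with ranges that overlapped.

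Tpi1 (ENSMUSG00000023456, chromosome 6, 124810586 to 124814296), the triose phosphate isomerase in the middle of glycolysis, was the only enzyme of the set that fell with the zinc finger. It stood at 620.1 and 668.2 CPM in ZF-SCN9A against 924.3 and 1049.5 in mCherry, at 0.652 of the control level (-0.62 ± 0.06, adjusted p = 9.04e-21). In the dCas9 arm it stood at 1093, 1218.5 and 882 CPM in dCas9-SCN9A against 1164, 1228 and 938 in dCas9-empty, with overlapping groups (-0.06 ± 0.14, adjusted p = 0.929). Spsb2 on the other strand covers 1.24% of its exon bases and averaged 16.3 CPM in ZF-SCN9A and 10.8 in mCherry, which did not pass (adjusted p = 0.0534). The enzymes on either side of Tpi1 did not pass the test. Aldoa, one step before, stood at 2259 and 2415 CPM in ZF-SCN9A against 2112 and 2457 in mCherry, and at 2994, 3704 and 2478 CPM in dCas9-SCN9A against 2967.5, 3374 and 2837 in dCas9-empty. Gapdh, one step after, stood at 1573 and 1648 CPM in ZF-SCN9A against 1424 and 1650.2 in mCherry (0.07 ± 0.06, adjusted p = 0.653).

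The other glycolytic enzymes had log2 fold changes between -0.32 and 0.25 with the zinc finger, and none of them passed. Pfkp, the platelet-type phosphofructokinase, came closest, at 764.6 and 771.8 CPM in ZF-SCN9A against 623.9 and 735.2 in mCherry (0.18 ± 0.06, adjusted p = 0.0693). Pfkl, Pfkm and Pfkp made up 43.1%, 28.7% and 28.1% of phosphofructokinase transcripts per kilobase in ZF-SCN9A and 43.8%, 28.9% and 27.3% in mCherry. Pfkfb3 and Pfkfb4, which make the activator of phosphofructokinase, did not pass. Pfkfb3 stood at 72.6 and 82.6 CPM in ZF-SCN9A against 75.1 and 72.5 in mCherry, and at 66.8, 66.9 and 67.1 CPM in dCas9-SCN9A against 71.7, 68.6 and 74.2 in dCas9-empty. Along with Hif1a it was 1 of 2 genes whose dCas9 groups did not overlap, where 15.6% of all genes did not. With the zinc finger 15 of 36 genes did not overlap, close to the 45.6% of all genes that did not.

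Ldha stood at 1986 and 2101 CPM in ZF-SCN9A against 1980.4 and 2154 in mCherry, and at 2274, 2527 and 1920.0 CPM in dCas9-SCN9A against 2366, 2463 and 1988 in dCas9-empty. Its log2 fold change was -0.02 with either repressor, with standard errors of 0.06 for the zinc finger and 0.10 for dCas9. Ldhb, the subunit that favours the return of lactate to pyruvate, had 0 counts in ZF-SCN9A and 3 in mCherry, against 21874 and 29035 counts of Ldha. Pklr, the liver pyruvate kinase, was likewise at 6 counts in ZF-SCN9A and 6 in mCherry beside Pkm at 24626 and 31487. Pkm and Ldha likewise held at least 99.9% of their families per kilobase in dCas9-SCN9A and in dCas9-empty.

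Whether the repressors differed was tested as the dCas9 change minus the zinc-finger change over all 10 libraries, and 2 of 36 genes passed, against 0.907% of 15766 genes. Ankrd37 had a difference of -1.19 ± 0.24 (95% interval -1.65 to -0.72, adjusted p = 0.00579), and Hif1a one of 0.50 ± 0.10 (0.31 to 0.69, adjusted p = 0.00409). Adm had the largest difference, -1.54 ± 0.40 (interval -2.33 to -0.75), but missed the threshold in the edgeR test (adjusted p = 0.189). Hk2 (-0.56 ± 0.18, adjusted p = 0.261) and Egln3 (-0.80 ± 0.33, adjusted p = 0.342) did not pass either. The difference was below 0 for all 15 HIF targets and for 16 of 20 genes of glucose uptake and glycolysis, against 50.1% of all genes, with medians of -0.25 and -0.12. Over 21 alternatives the difference of Adm passed in 6, DESeq2 and limma-voom among them (smallest adjusted p = 7.18e-05), and that of Hk2 in 4 (smallest adjusted p = 1.29e-06). DESeq2 called 4 of 36 genes in the difference (Hk2, Adm, Ankrd37 and Hif1a, against 1.43% of all genes) and 4 in the zinc-finger comparison (1.2% of all genes). Both calls of the difference were lost without mCherry replicate 1 (adjusted p = 0.102 for Hif1a and 0.115 for Ankrd37), Hif1a also without ZF-SCN9A replicate 2 (0.0543) and Ankrd37 also without ZF-SCN9A replicate 1 (0.117).

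The 2 mCherry libraries themselves differed across these genes. In mCherry replicate 1, 32 of 36 genes lay below the mean of the 2 controls, by a median of -0.11 in log2(CPM + 1). Replicate 2 mirrors this, with 32 of 36 above and a median of 0.11, since the mean is of these 2 libraries. Over all genes, 49.5% lay above the mean in mCherry replicate 1 and 50.5% in mCherry replicate 2. The zinc-finger libraries lay above the control mean for 25 and 30 of 36 genes, by medians of 0.10 and 0.11, so ZF-SCN9A and mCherry replicate 2 stood about equally far from it. The median deviation of the HIF targets was 0.22 in ZF-SCN9A replicate 1 and 0.10 in ZF-SCN9A replicate 2. It was -0.14 in mCherry replicate 1 and 0.14 in mCherry replicate 2, the latter above ZF-SCN9A replicate 2. For the genes of glucose uptake and glycolysis it was 0.00 and 0.13 in ZF-SCN9A, and -0.11 and 0.11 in mCherry. Without mCherry replicate 1, 5 genes passed (Adm, Ankrd37, Ndrg1, Hif1a and Tpi1) and the median of the 15 HIF targets was 0.07. Without mCherry replicate 2, 15 genes passed and that median was 0.34. Calls over all genes moved alike, at 262 without mCherry replicate 1 and 787 without mCherry replicate 2. The median of the 20 genes of glucose uptake and glycolysis was -0.03 without mCherry replicate 1 and 0.18 without mCherry replicate 2. Hif1a, Tpi1, Adm and Ankrd37 passed with each library left out in turn. Ndrg1 was lost without ZF-SCN9A replicate 1 (adjusted p = 0.152), Hk2 and Slc2a3 without mCherry replicate 1 (0.0763 and 0.37), Pdk1 without mCherry replicate 1 or ZF-SCN9A replicate 2 (0.247 and 0.114), and P4ha2 without mCherry replicate 1 or either ZF-SCN9A library (0.178 to 0.655). What set these libraries apart was not tested.

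**Figure D4:**
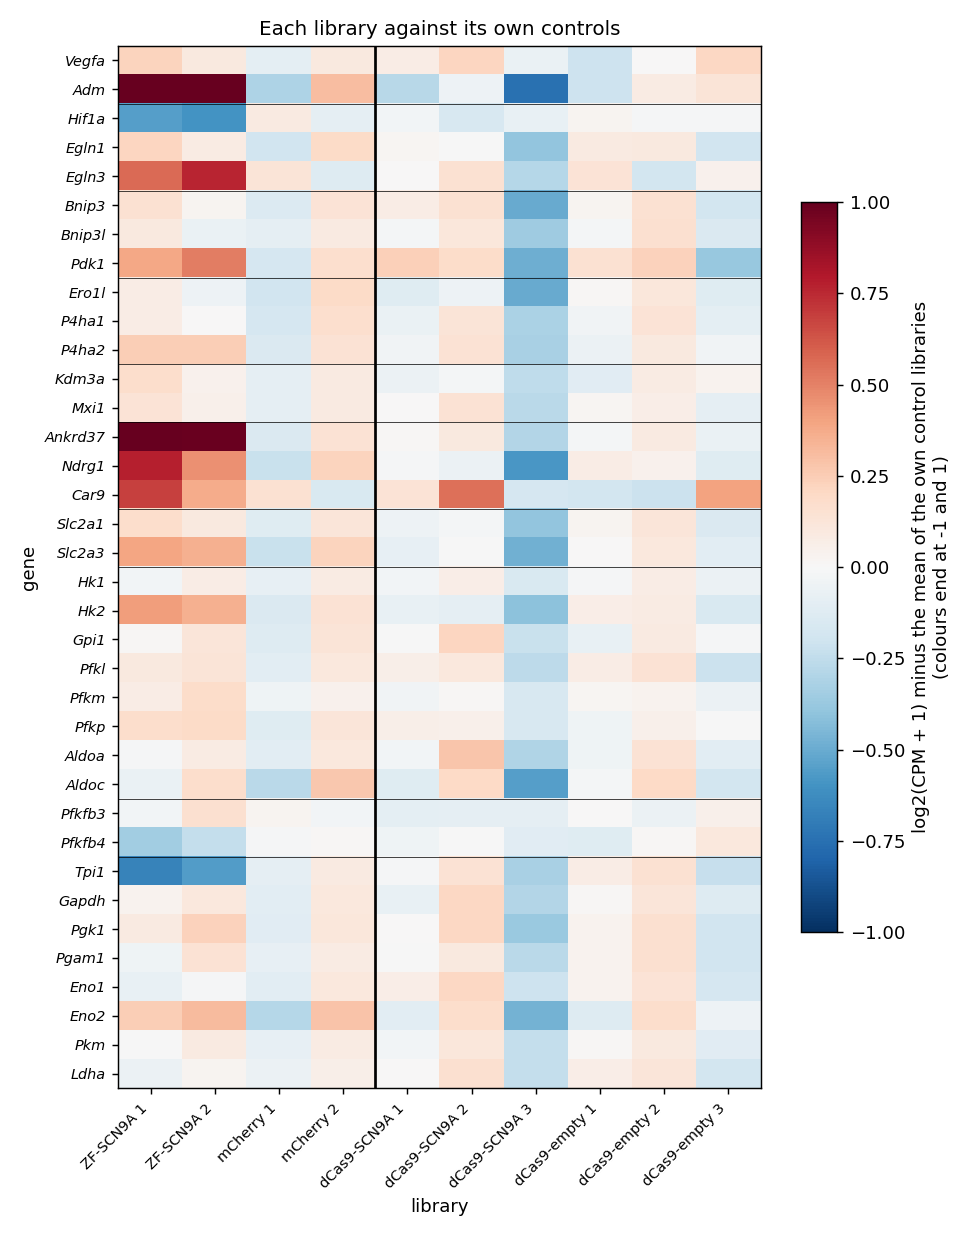
Deviation of each library from the mean of its own control libraries, in log2(CPM + 1), for the 36 genes (rows) in ZF-SCN9A, mCherry, dCas9-SCN9A and dCas9-empty (columns), with colours that end at -1 and 1. The column of dCas9-SCN9A 3 is below 0 in all 36 rows, and Adm and Ankrd37 are the darkest red cells of ZF-SCN9A. The columns mCherry 1 and mCherry 2 mirror each other because deviations are taken from their mean.

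Further genes of the same pathways were taken from lists of known function, also chosen with earlier results of these data known. Of 32 other HIF targets, 26 were tested with the zinc finger, and 5 rose and 2 fell, where 1.95% of all genes rose and 2.78% fell. The same shares stand behind the counts of the other lists. Those that rose were Zfp395 (0.66), a transcription factor, Bhlhe40 (0.61), a clock-linked repressor, Stc2 (0.42), a secreted glycoprotein, Ak4 (0.33), a mitochondrial adenylate kinase, and Ddit4 (0.28), an inhibitor of mTORC1, with adjusted p from 1.43e-09 to 0.0195. Bhlhe40, for example, stood at 116.6 and 106.1 CPM in ZF-SCN9A against 66.7 and 78.8 in mCherry. Tfrc, the transferrin receptor (-0.30, adjusted p = 0.00446), and the phosphatase gene Dusp1 (-0.56, adjusted p = 0.0149) fell. The median of the 26 was 0.07. Without mCherry replicate 1, Bhlhe40 and Zfp395 still passed (adjusted p = 0.0146 for Zfp395), while Stc2, Ak4, Ddit4, Tfrc and Dusp1 did not, with adjusted p from 0.112 to 0.666. Zfp395 was lost without ZF-SCN9A replicate 1 (adjusted p = 0.126), so that of these 7 genes only Bhlhe40 passed with each library left out.

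In the HIF machinery 12 of 14 genes were tested, and 1 fell, the co-activator Ep300 (-0.23, adjusted p = 0.0434, and 0.569 without mCherry replicate 1). None of its partners, hydroxylases or VHL complex subunits passed. Of 14 genes that decide the fate of pyruvate, 12 were tested. Slc16a1, the lactate transporter MCT1, rose by 0.29 (adjusted p = 0.00138), at 258.1 and 245.4 CPM in ZF-SCN9A against 199.7 and 211.2 in mCherry. That call was lost without ZF-SCN9A replicate 1 (adjusted p = 0.217). Pdp2, a phosphatase that reopens pyruvate dehydrogenase, fell by 0.46 (adjusted p = 0.00922, and 0.382 without mCherry replicate 1). Of 21 other glycolytic isoforms and regulators 12 were tested and 1 fell, Tigar, a fructose bisphosphatase (-0.42, adjusted p = 0.0435, and 0.322 without mCherry replicate 1). Of 8 receptors for adrenomedullin and VEGF 4 were tested and 0 passed, the smallest p being that of Calcrl (-0.43, adjusted p = 0.414). All 7 pentose phosphate genes were tested and 0 passed, the smallest p being that of Pgd (-0.16, adjusted p = 0.244). With dCas9, edgeR called 0 genes in these lists. Their smallest p-values belonged to Crebbp (-0.23, adjusted p = 0.219), Nrp2 (-0.18, 0.256), Kdm4c (-0.16, 0.463), Pfkfb1 (0.30, 0.655), Dlat (-0.11, 0.552) and Pgls (0.10, 0.566).

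**Figure D5:**
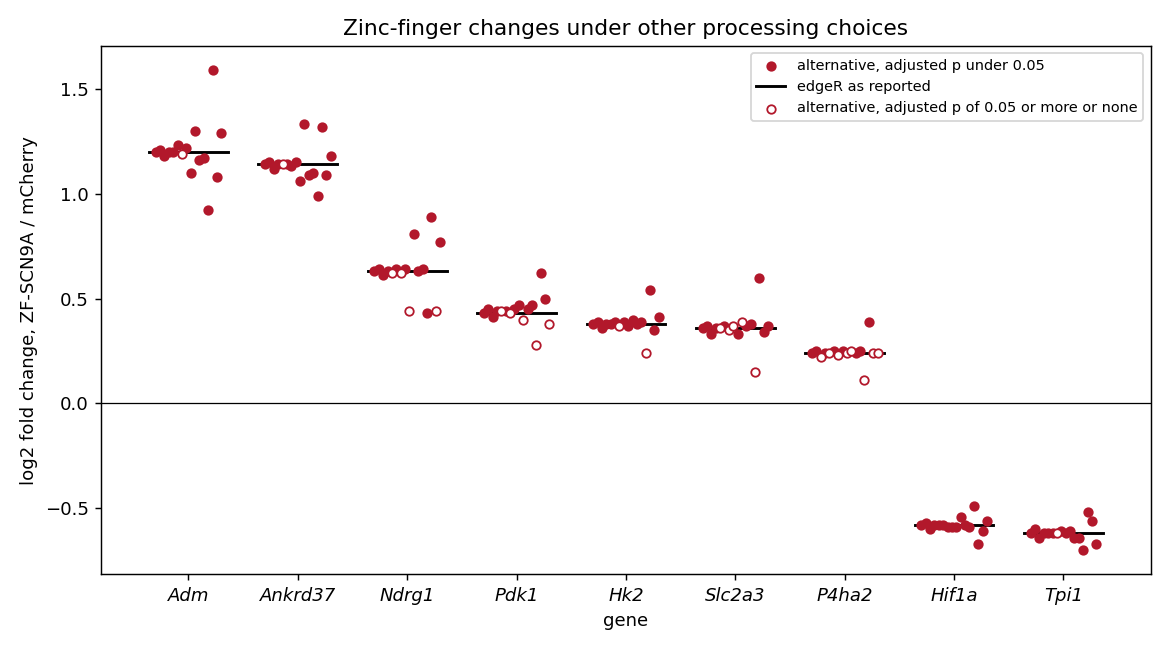
Log2 fold change of the 9 genes that changed with the zinc finger (ZF-SCN9A against mCherry) as reported (bar) and under each of 16 other processing choices (points, filled at an adjusted p under 0.05). No point crosses 0, Hif1a is filled throughout, and P4ha2 is filled in 8 of 16.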

How the data were processed

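The deposited values are whole-number counts of reads per gene laid out as STAR writes them, 3 columns per library (unstranded, then either strand). The submitters' processing notes name STAR 2.7.3a, bcl2fastq 2.20, DESeq2 and build GRCm38, without roles or settings. Both strands held equal shares (50.0% to 50.2%), so unstranded counts were used, and antisense overlaps cannot be resolved. No-gene entries (25.0% to 28.2% of reads) and 4 plasmid entries were left out of library sizes and tests. Replicates differed by more than sampling noise.

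Each arm was fitted with edgeR 4.0.16 (R 4.3.3): TMM, filterByExpr, robust quasi-likelihood, two-sided, Benjamini-Hochberg over all genes tested; the difference between repressors used all 10 libraries. The SE is the log2 fold change over the root of F. The 95% intervals multiply that SE by a normal quantile, so they are narrower than the F test implies. The biological coefficient of variation was 6.07% for dCas9 and 5.12% for the zinc finger, where 88.0% of genes had an infinite prior, so their p-values rest on spread shared across genes. An exact permutation test could not go below p = 0.1 (3 against 3) or 0.33 (2 against 2). CPM are TMM-scaled. Of 2 Aldoa identifiers, ENSMUSG00000030695 was used. Alternatives were DESeq2 1.42.0, limma-voom (limma 3.58.1), other scalings, filters, strand columns, exon length offsets, a replicate block and each library left out. The genes and lists were chosen with earlier results of these data known. Named individually were genes that passed, the 3 of smallest p that did not, and the highest per length in each role; in the added lists, genes that passed or else that of smallest p.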

Additional observations from a re-analysis of the deposited data

Results flagged for a closer look

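Hif1a changed differently under the repressors: the dCas9 change minus the zinc-finger change was 0.50 ± 0.10 on the log2 scale (adjusted p = 0.00409), with the transcript lower in both ZF-SCN9A libraries than in both mCherry libraries. Ankrd37 differed in the other direction, by -1.19 ± 0.24 (adjusted p = 0.00579). Each of these calls was lost in 3 of 21 alternatives: without mCherry replicate 1 and without 1 ZF-SCN9A library, and also in stranded column 3 for Hif1a (adjusted p = 0.122) and in limma-voom for Ankrd37 (adjusted p = 0.0766). Slc16a1, the lactate transporter, differed by -0.37 ± 0.09 (adjusted p = 0.0417), a call that 10 of 21 alternatives lost. In each case the test of the difference itself raised the result, and repressor, control plasmid and arm cannot be told apart.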

How the results depend on the processing

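With each library left out in turn, the count of genes that passed with the zinc finger ran from 5 to 15, that with dCas9 stayed at 0, and that of the difference ran from 0 to 3. The zinc-finger median of the HIF targets ran from 0.07 to 0.34, where leaving out mCherry replicate 2 gave 0.34. A group left with 1 library was assumed to vary like the other. DESeq2 called 4 of 36 genes with the zinc finger (Hk2, Tpi1, Adm and Hif1a) and 4 in the difference. A fit of all 10 libraries called 2 with the zinc finger (Ankrd37 and Hif1a), where 115 of all 15766 genes tested rose and 233 fell. No filter on low counts gave 5 in the difference, where 157 of all 32129 genes tested were higher and 117 lower. Other settings gave 7 to 12 of 36 with the zinc finger. The cause of these shifts was not tested.

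The labels do not say whether replicate numbers pair the samples, and the fits reported did not pair them. Same-numbered libraries deviated together with correlations of 0.26, 0.23 and 0.048 in the dCas9 arm, and differently numbered ones with -0.28 to 0.10. There dCas9-empty replicate 3 matched dCas9-SCN9A replicate 2 better than its own number. In the zinc-finger arm, with 2 libraries a group, the correlation of 0.073 is a single value and cannot settle pairing. With the replicate block, 2 genes passed with dCas9 (Hk2 and Ero1l, both lower), 10 with the zinc finger and 5 in the difference (Pdk1, Hk2, Tpi1, Ankrd37 and Hif1a). Over all genes, the block called 84 higher and 178 lower with dCas9, and 222 and 348 with the zinc finger. In the difference it called 233 higher and 196 lower of 15766, against 102 and 41 without the block. The zinc-finger call of Slc2a3 was lost there, and those of Pgk1 and Pfkp were added. With the block and exon length offsets together, 2 passed with dCas9 and 6 in the difference, Slc2a1 added. Over all genes, that setting called 53 higher and 42 lower with dCas9, and 242 and 233 in the difference. In stranded column 4, the zinc-finger calls of P4ha2 and Ndrg1 were lost. In the added lists, that column also lost Zfp395, Slc16a1, Ep300, Stc2, Ak4, Tfrc, Dusp1, Tigar and Pdp2. DESeq2 lost every zinc-finger call of the added lists except those of Bhlhe40 and Zfp395. Over all genes, calls numbered 6 with dCas9 (1 to 262 over the alternatives), 609 with the zinc finger (128 to 876) and 143 in the difference (71 to 475). No gene that passed changed its direction under the alternatives run. Car9 stood at 2.21 CPM or less in every library, where depth limits precision most.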
